A study of Mus musculus with 6 samples.

Results

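The genes described here carry the liver's ammonia into urea: the 5 enzymes of the urea cycle (Cps1, Otc, Ass1, Asl and Arg1), the enzyme that makes the activator of the cycle (Nags), the mitochondrial carriers that serve it (Slc25a15 and Slc25a13) and the glutamate enzymes that feed it with ammonia (Glud1 and Gls2). They were chosen by symbol, for their place in the pathway, with earlier results of these data known. All 10 were found among the 19613 rows of the deposited expression table, and all 10 passed the filter on low values that left 9218 rows to test.

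Total liver RNA was sequenced from knockout (KO) mice and from wild-type (WT) mice, with 3 libraries of each genotype. Mice of both genotypes had received lipopolysaccharide (LPS), a bacterial endotoxin, into the peritoneum at 15 mg/kg, and livers were taken 6 h later. No untreated liver was analysed here, so KO is compared with WT under endotoxin and nothing is said of LPS against no LPS. No source used here gives the strain, age or sex of the mice, or says that replicates were separate animals. The p-values therefore reflect the spread between libraries, which may be technical.

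Values are FPKM, by name the fragments of a gene scaled for its length and for the fragments of its library. FPKM summed to between 442815 and 576649 in KO libraries and to between 327641 and 451856 in WT libraries, and as deposited the median log2 fold change of all 9218 genes was 0.45 in favour of KO. Each library was therefore divided by a median-of-ratios factor, after which that median was -0.00498. Levels below are scaled FPKM, and fold changes are KO over WT on the log2(FPKM + 1) scale, unless the deposited values are named. Whole reads, recovered from the steps of the FPKM values, numbered between 34402300 and 44141095 per KO library and between 26010585 and 34171094 per WT library. The deposited values did not follow these library totals. KO replicate 2 had 34886979 reads in all, and Ass1 had 467 deposited FPKM there from 32747 reads. WT replicate 2 had 34171094 reads in all, and Ass1 had 342 deposited FPKM there from 37522 reads. The fewest reads behind a member in any library were 972 (Nags in WT replicate 2) and the most were 50385 (Ass1 in KO replicate 3).

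The urea cycle runs across the mitochondria and the cytosol of hepatocytes. In the mitochondrion, carbamoyl phosphate synthetase captures ammonia, and ornithine transcarbamylase passes the product on as citrulline. In the cytosol, citrulline and aspartate are joined and split again to arginine, and arginase releases urea and returns ornithine to the mitochondrion. The cycle enzymes are concentrated in hepatocytes around the portal vein, whereas glutamine synthetase captures remaining ammonia around the central vein. Arginine is also the substrate of the inducible nitric oxide synthase, which endotoxin switches on, and ornithine is the start of polyamine synthesis.

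Promoter sequence was matched by symbol for 6 of the 10 genes (7 windows, as Slc25a15 had 2), from RefSeq on GRCm38.p6, a build other than the mm39 named in the submitters' processing notes. The sequences of 4 are shown, picked by the results given below. They include Otc, whose estimate lay near 0, and Glud1, whose estimate was the farthest from 0. The others are Nags, which alone passed the test in the deposited values, and Slc25a13, the only member with a match to a searched motif. No link between promoter sequence and expression was tested. Each run gives the 250 bases before the annotated start in lower case and the first 30 transcribed bases in capitals, read 5′ to 3′ along the strand of the gene. Capitals within the upstream part of Slc25a13 mark a CCAAT box that begins at position -22 from the start. The windows are chrX:10252055-10252334 on the plus strand for Otc, chr14:34310477-34310756 on the plus strand for Glud1, chr11:102145263-102145542 on the plus strand for Nags and chr6:6217144-6217423 on the minus strand for Slc25a13.
Otc: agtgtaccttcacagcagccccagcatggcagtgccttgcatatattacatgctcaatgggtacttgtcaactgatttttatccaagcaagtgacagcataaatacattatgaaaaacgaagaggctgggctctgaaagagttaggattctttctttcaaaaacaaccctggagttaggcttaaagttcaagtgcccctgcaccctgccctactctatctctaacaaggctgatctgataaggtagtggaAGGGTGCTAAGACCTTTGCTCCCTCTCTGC
Glud1: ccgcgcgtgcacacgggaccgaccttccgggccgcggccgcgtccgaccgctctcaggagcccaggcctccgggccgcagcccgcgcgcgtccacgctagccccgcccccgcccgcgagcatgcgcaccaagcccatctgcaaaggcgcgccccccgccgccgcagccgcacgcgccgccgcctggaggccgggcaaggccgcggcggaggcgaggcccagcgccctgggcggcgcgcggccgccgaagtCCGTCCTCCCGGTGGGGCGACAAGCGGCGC
Nags: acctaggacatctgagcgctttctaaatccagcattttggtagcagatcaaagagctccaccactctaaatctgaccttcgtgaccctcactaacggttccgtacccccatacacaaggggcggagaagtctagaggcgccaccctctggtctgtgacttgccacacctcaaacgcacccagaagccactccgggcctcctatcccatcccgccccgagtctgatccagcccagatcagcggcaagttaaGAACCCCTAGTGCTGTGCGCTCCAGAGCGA
Slc25a13: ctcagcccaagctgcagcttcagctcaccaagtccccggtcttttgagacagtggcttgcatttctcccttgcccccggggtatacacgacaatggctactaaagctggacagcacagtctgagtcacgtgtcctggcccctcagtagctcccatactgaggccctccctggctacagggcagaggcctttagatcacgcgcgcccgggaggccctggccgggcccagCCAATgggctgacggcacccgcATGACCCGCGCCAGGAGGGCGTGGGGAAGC
The 4 windows differed widely in base composition, with 45.0% G and C in Otc, 81.8% in Glud1, 56.4% in Nags and 63.9% in Slc25a13, against a median of 52.5% over all 32851 windows of the table. Exact letters of 8 motifs were searched on both strands of the full windows, which reach 50 bases past the start. CCAAT was in 1 of the 6 members and in 37.4% of all windows. TATAAA (13.6% of all windows), TGACGTCA (1.79%), TGACGCAA (0.49%), TTGCGCAA (0.183%), TTGCNNAA (10.8%, a looser form that takes in every TTGCGCAA), CAAAGTCCA (0.475%) and AGAACA (19.0%) were in none of the 7 member windows. A match or its absence describes these letters in these windows only.

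No urea cycle or ammonia gene passed the test between KO and WT livers after scaling. Of the 10, 0 passed an adjusted p of 0.05 (limma, Benjamini-Hochberg over 9218 genes), where 1.07% of all tested genes passed. An unadjusted limma p under 0.05 was found for 0 of the 10 and for 1300 of all 9218 genes. The log2 fold change was above 0 for Nags and below 0 for the other 9, with Otc and Gls2 within 0.01 of 0. Over the 10 genes the median was -0.19, beside -0.00498 over all tested genes, of which 4695 of 9218 were below 0. The lean was not particular to these genes, since all 6 hepatocyte markers were also below 0, with a median of -0.23. The 9 markers of the portal zone, where the cycle enzymes are concentrated, did not share it. Of these, 5 were above 0 and 4 below, with a median of 0.05. The KO and WT values of every member overlapped: in 0 of 10 was each KO library below each WT library, which 9.88% of all genes showed, and in 0 of 10 above, which 10.3% of all genes showed. In bulk tissue, fewer cells of a type and less RNA per cell cannot be told apart in any of these values.

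**Figure D1:**
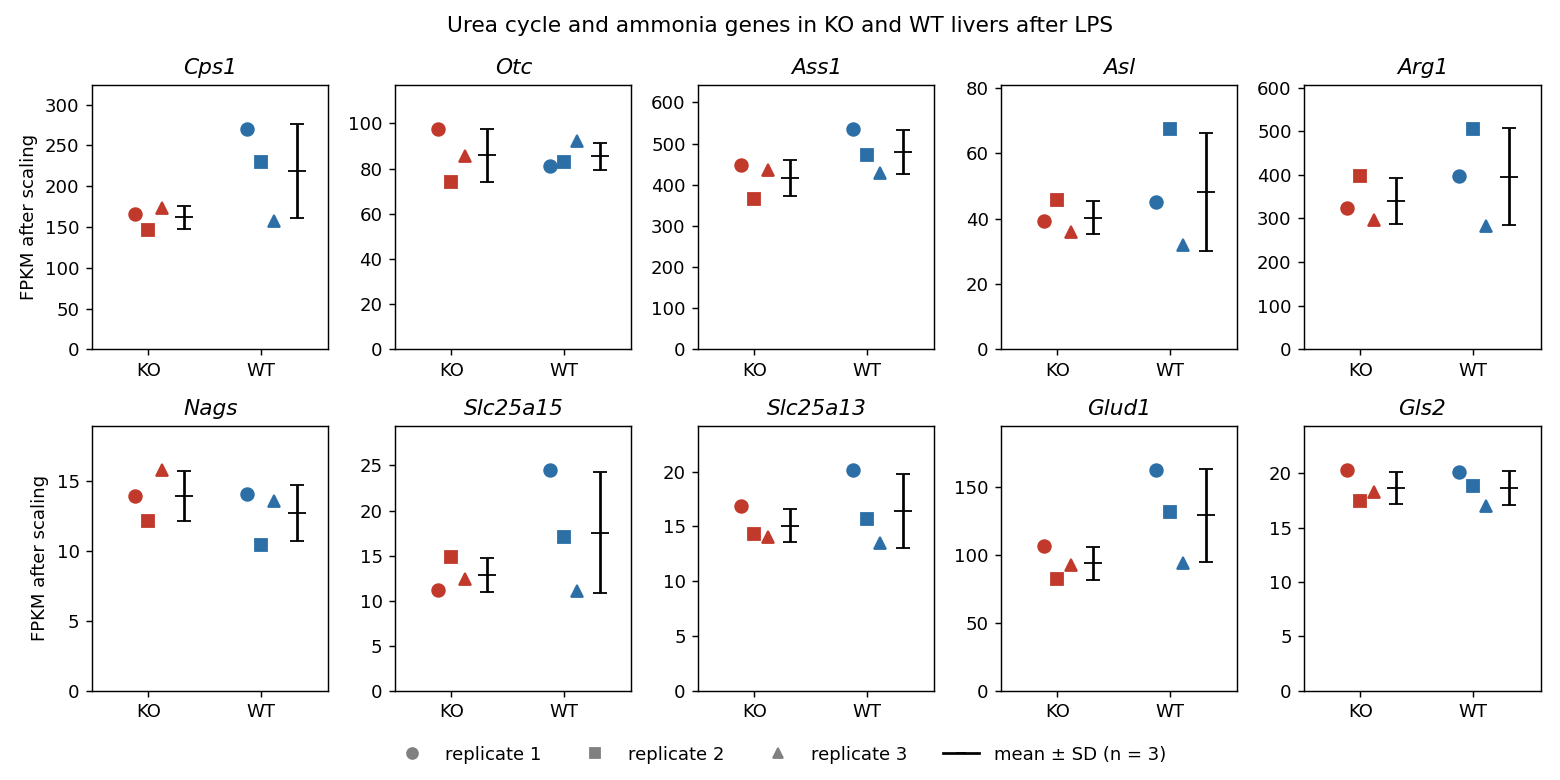
Scaled FPKM of each gene in every library (circles, squares and triangles for replicates 1, 2 and 3), KO at the left and WT at the right of each panel, with the mean and SD of the 3 libraries beside the points; each axis starts at 0. The ranges of the KO and WT points overlap in all 10 panels, and WT replicate 3 is the lowest WT point in 8 of them.

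Cps1 encodes carbamoyl phosphate synthetase, the first and rate-limiting enzyme of the cycle. It had 166, 147 and 173 FPKM in KO replicates 1 to 3, against 270, 229 and 157 FPKM in WT replicates 1 to 3. WT replicates 1 and 2 lay above all KO libraries and WT replicate 3 lay inside the KO range. The means were 162 ± 13.7 FPKM in KO and 219 ± 57.3 FPKM in WT (SD, n = 3 each), and the log2 fold change of -0.40 (95% interval -0.87 to 0.07) did not pass (limma adjusted p = 0.427). The estimate was -0.62 without WT replicate 3 and -0.23 without WT replicate 1, and neither passed (limma adjusted p = 0.177 and 0.577).

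Otc encodes ornithine transcarbamylase, the X-linked enzyme that makes citrulline in the mitochondrion. Its FPKM were 97.5, 74.2 and 85.7 in the KO libraries, against 81.2, 83.1 and 92.4 in the WT libraries. The KO libraries held both the highest and the lowest value of the 6. Means of 85.8 ± 11.6 FPKM in KO and 85.5 ± 6.00 FPKM in WT (SD, n = 3 each) gave a log2 fold change of -0.0019 with a 95% interval of -0.32 to 0.32 (limma adjusted p = 0.997). The interval leaves room for a change of that size in either direction.

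Ass1 encodes argininosuccinate synthetase, which joins citrulline to aspartate, and its mean FPKM was the highest of the 10 in both genotypes, although Arg1 was above it in replicate 2 of each. It had 448, 365 and 435 FPKM in KO and 536, 473 and 429 FPKM in WT, so that WT replicate 3 lay below 2 of the KO libraries. The log2 fold change was -0.20 (95% interval -0.55 to 0.15, limma adjusted p = 0.611). Asl, argininosuccinate lyase, which releases arginine and fumarate, had 39.2, 45.8 and 35.8 FPKM in KO and 45.1, 67.4 and 31.9 FPKM in WT. WT held both the highest and the lowest Asl value. Its log2 fold change was -0.19 with a wide 95% interval of -0.76 to 0.37 (limma adjusted p = 0.788).

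Arg1, liver arginase, closes the cycle by splitting arginine into urea and ornithine. Its FPKM were 323, 398 and 296 in KO, against 398, 505 and 283 in WT. As for Asl, replicate 2 was the highest and replicate 3 the lowest library in both genotypes, and WT held both ends of the range. Means of 339 ± 52.6 FPKM in KO and 396 ± 111 FPKM in WT (SD, n = 3 each) gave a log2 fold change of -0.19 (95% interval -0.71 to 0.32, limma adjusted p = 0.765).

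Nags encodes N-acetylglutamate synthase, whose product is the obligatory activator of carbamoyl phosphate synthetase. It was among the lowest of the 10, with 13.9, 12.2 and 15.8 FPKM in KO and 14.1, 10.4 and 13.6 FPKM in WT. WT replicate 2 was the lowest and KO replicate 3 the highest of the 6, and the rest lay close together. The log2 fold change of 0.13 (95% interval -0.22 to 0.47) did not pass after scaling (limma adjusted p = 0.768). In GENCODE M21 (GRCm38), 443 of the 2838 exonic bases of Nags (15.6%) overlap the antisense gene Gm11586. No source used here gives the strand setting of the counting, so reads of the 2 genes cannot be told apart over that stretch.

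The carriers move substrates of the cycle across the inner mitochondrial membrane. Slc25a15, which exchanges ornithine for citrulline, had 11.2, 14.9 and 12.4 FPKM in KO and 24.5, 17.0 and 11.1 FPKM in WT. WT replicates 1 and 2 were above every KO library and WT replicate 3 was below every KO library. Its log2 fold change was -0.36 (95% interval -0.94 to 0.21, limma adjusted p = 0.562), and it was -0.64 without WT replicate 3 and -0.10 without WT replicate 1 (limma adjusted p = 0.22 and 0.836). Slc25a13, citrin, which exports the aspartate that argininosuccinate synthetase uses, had 16.8, 14.3 and 14.0 FPKM in KO and 20.1, 15.6 and 13.5 FPKM in WT. Here too WT held both the highest and the lowest library. The log2 fold change was -0.10 (95% interval -0.47 to 0.26, limma adjusted p = 0.835).

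Glud1 and Gls2 encode the enzymes that release ammonia from glutamate and from glutamine. Glud1, glutamate dehydrogenase, had 107, 82.3 and 92.7 FPKM in KO and 162, 132 and 93.9 FPKM in WT. WT replicates 1 and 2 were above every KO library, and WT replicate 3 was between KO replicates 1 and 3. Its log2 fold change was the farthest from 0 among the 10, at -0.43 (95% interval -0.91 to 0.04), and did not pass (limma adjusted p = 0.397). It was -0.64 without WT replicate 3 and -0.25 without WT replicate 1 (limma adjusted p = 0.194 and 0.542). Gls2, the liver-type glutaminase, had 20.3, 17.4 and 18.3 FPKM in KO and 20.2, 18.8 and 17.0 FPKM in WT. The Gls2 values were nearly evenly mixed between the genotypes, with means of 18.7 ± 1.47 FPKM in KO and 18.7 ± 1.57 FPKM in WT (SD, n = 3 each) and a 95% interval of -0.27 to 0.27, the narrowest of the 10. Gls2 shares 97 of its 3474 exonic bases (2.79%) with Spryd4 on the opposite strand, and the other 8 members shared no exonic base with another gene.

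**Figure D2:**
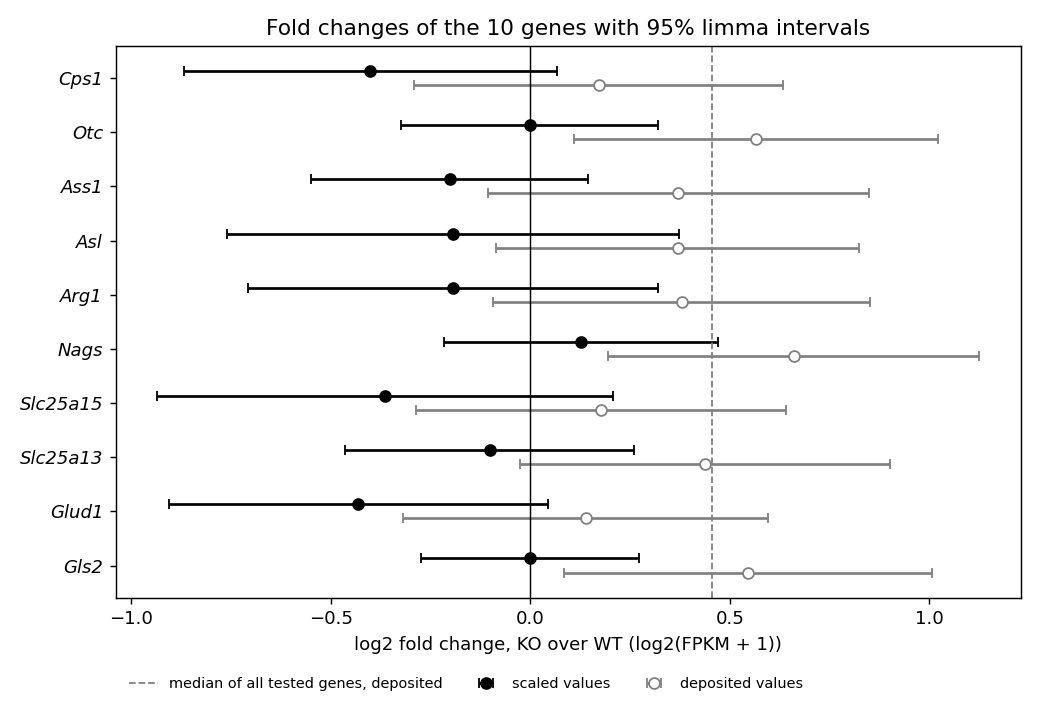
Log2 fold change of each gene, KO over WT, with its 95% limma interval; filled points are scaled values, open points are deposited values, and the dashed line marks the deposited median of all tested genes, 0.45. All 10 filled intervals cross 0, whereas the deposited estimates run from 0.14 for Glud1 to 0.66 for Nags, on both sides of the dashed line.

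The direction of the members depended on the scaling, since as deposited all 10 had a log2 fold change above 0, with a median of 0.38 beside 0.45 over all genes. Those deposited values did not follow the recovered reads of the libraries, as given above for Ass1. Nags was the only member to pass in the deposited values. Its deposited FPKM were 14.1, 15.5 and 22.0 in KO and 10.9, 7.54 and 13.4 in WT, without overlap, and its log2 fold change was 0.66 (95% interval 0.19 to 1.13, limma adjusted p = 0.0303). A count of 1 of 10 higher stood beside 28.7% of all tested genes that passed as higher in the deposited values. With Nags, 5 of the 10 members had each deposited KO value above each WT value, as had 47.3% of all tested genes. The other 4 were Otc, Ass1, Slc25a13 and Gls2, which did not pass (limma adjusted p = 0.051, 0.183, 0.116 and 0.06).

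The levels of the 10 genes fell into the same broad order in every library. Among the 19613 rows, ranked within each library from the highest FPKM, Ass1 ranked between 84 and 104, Arg1 between 93 and 146, Cps1 between 168 and 259, Glud1 between 262 and 439 and Otc between 419 and 513. Asl was lower, between 593 and 1080. Slc25a15 (1425 to 2610), Gls2 (1648 to 1850), Slc25a13 (1667 to 2222) and Nags (1958 to 2763) were the lowest and their ranks crossed between libraries. The ranks of Ass1 and Arg1 also crossed. In every library Cps1 came below both and was followed by Glud1, Otc and Asl, although the differences between Glud1 and Otc were often small. Ranks are set within a library and are not moved by a scaling factor.

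The shares of the enzymes within the cycle overlapped between the genotypes. Of the summed FPKM of the 5 cycle enzymes, Ass1 held 39.9% on average in KO and 39.4% in WT, Arg1 32.5% in KO and 31.9% in WT, and Cps1 15.5% in KO and 17.7% in WT. Otc held 8.21% in KO and 7.17% in WT, and Asl 3.86% in both. Library by library, the Cps1 share was 15.4%, 14.2% and 16.9% in KO, against 20.3%, 16.9% and 15.8% in WT. The sum of the 5 was 1074, 1030 and 1026 FPKM in KO and 1330, 1358 and 993 FPKM in WT, so WT replicates 1 and 2 stood above, and WT replicate 3 below, all KO libraries.

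The WT libraries spread more widely than the KO libraries for most of these genes, and no test was made of the spread. The range of the 3 libraries on the log2 scale was wider in WT for 9 of the 10 members, all but Otc, where 59.9% of all tested genes had the wider range in WT. The widest WT ranges were those of Slc25a15 (0.376 in KO and 1.07 in WT), Asl (0.347 in KO and 1.05 in WT) and Arg1 (0.425 in KO and 0.832 in WT). WT replicate 3 was the lowest WT library for 8 of the 10 members, and it was so for 30.6% of all tested genes. The exceptions were Otc, lowest in WT replicate 1, and Nags, lowest in WT replicate 2. Within KO, replicate 2 was the lowest library for 6 members (Cps1, Otc, Ass1, Nags, Glud1 and Gls2) and the highest for Asl, Arg1 and Slc25a15.

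**Figure D3:**
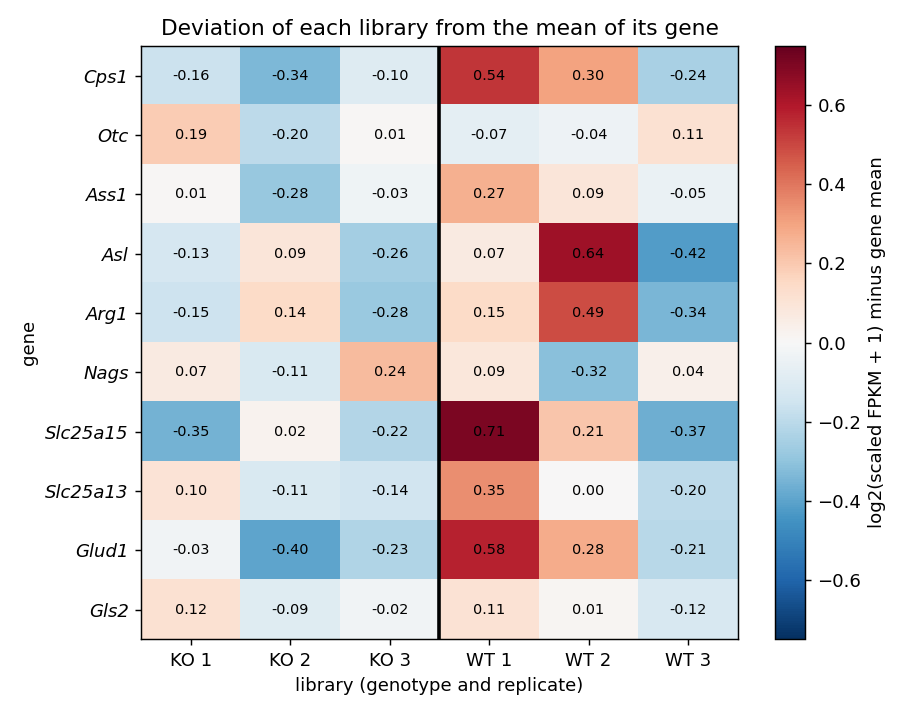
Deviation of each library (columns, KO at the left and WT at the right of the heavy line) from the mean of its gene (rows), in log2(scaled FPKM + 1); red is above and blue below the mean of the 6 libraries. WT replicate 1 is red for most genes and deepest for Slc25a15, WT replicate 2 is deepest for Asl and Arg1, and WT replicate 3 is blue in all genes but Otc and Nags.

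Ratios of genes within a library do not depend on any scaling between libraries. Of 8 ratios, 2 did not overlap between the genotypes, and neither was between members alone. No test was made of them, and no share over other pairs of genes was counted. The log2 ratio of Arg1 to Nos2, the enzymes that compete for arginine, was 6.32, 6.46 and 6.20 in KO and 5.53, 5.89 and 4.77 in WT, higher in each KO library than in any WT library (difference of means 0.931). This ratio restates the lower Nos2 in KO (log2 fold change -0.97, without overlap). Arg1 itself overlapped and was not higher in KO (-0.19). Cps1 to Glul, the entry enzymes of the portal and central routes of ammonia removal, was -0.618, -0.487 and -0.546 in KO and -0.164, 0.089 and -0.476 in WT, a difference of -0.367 in which WT replicate 3 came close to the KO libraries.

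Ratios among the members themselves overlapped. The log2 ratio of Cps1 to Otc, the successive mitochondrial steps, was 0.764, 0.982 and 1.02 in KO and 1.73, 1.46 and 0.764 in WT. WT replicates 1 and 2 were above the KO libraries and WT replicate 3 tied with the lowest of them. Arg1 to Ass1 was -0.471, 0.123 and -0.556 in KO and -0.427, 0.0938 and -0.598 in WT, nearly the same set in both genotypes, with replicate 2 the highest in each. Ass1 to Asl likewise repeated its set, with 3.51, 2.99 and 3.60 in KO and 3.57, 2.81 and 3.75 in WT. The differences of means were 0.036 for Gls2 to Glul, -0.277 for Slc25a15 to Slc25a13 and -0.097 for Cps1 to Alb (albumin), all with overlap.

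**Figure D4:**
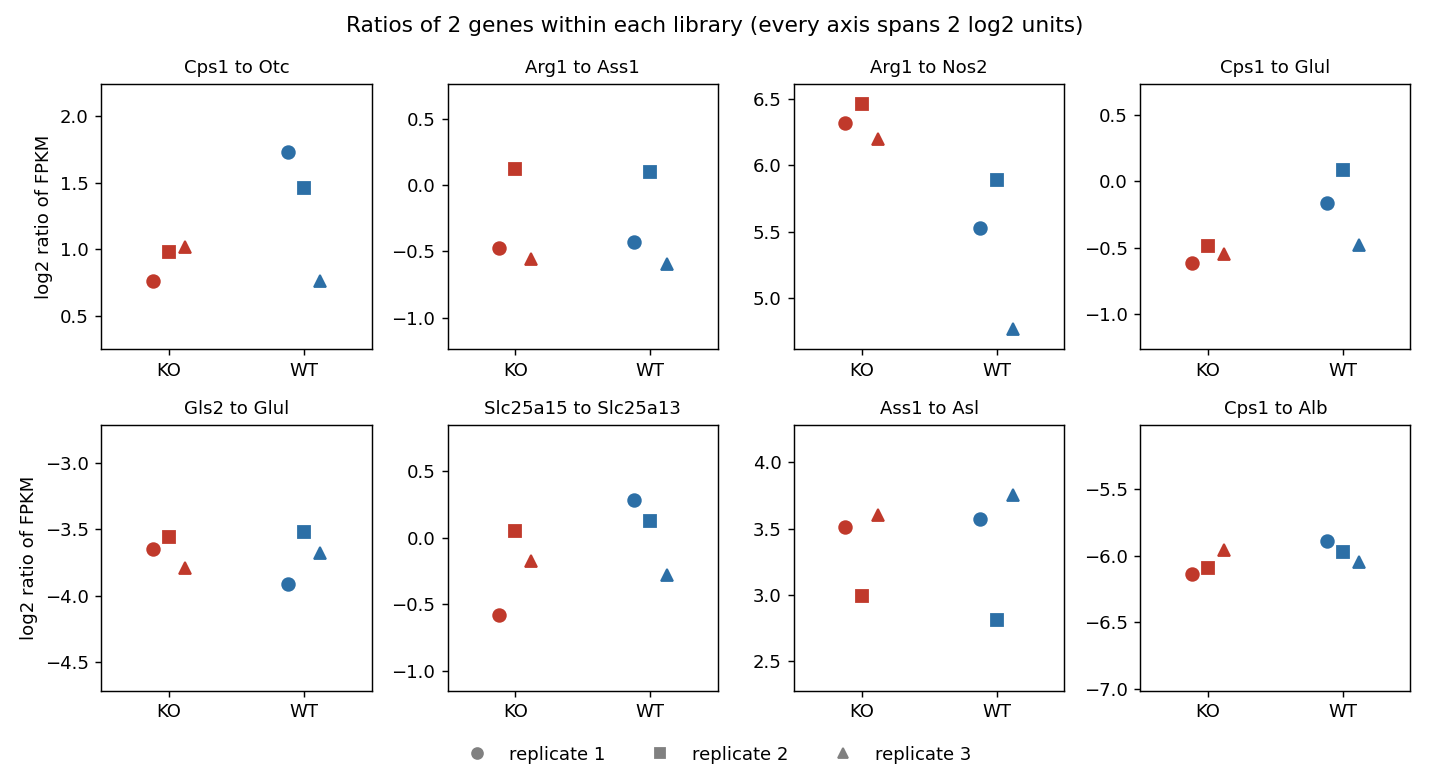
Log2 ratio of the FPKM of 2 genes within each library, KO at the left and WT at the right of each panel, with a marker shape for each replicate; every axis spans 2 log2 units. The groups are apart for Arg1 to Nos2, with KO between 6.20 and 6.46 and WT between 4.77 and 5.89, and for Cps1 to Glul, where the gap to WT replicate 3 is small.

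Outside the 10 members, 93 genes of arginine, glutamine, aspartate and amino acid metabolism and of urea cycle regulation were taken as 6 lists, of which 77 passed the filter. Among the 77, 1 rose (Srm) and 1 fell (Nos2), beside 1.07% of all tested genes that passed. Estimates were above 0 for 23 and below 0 for 54, with a median of -0.12. In 18 of the 77 each KO library was below each WT library (9.88% of all genes), and in 5 above (10.3% of all genes). As deposited 17 of the 77 passed as higher, beside 28.7% of all genes, and 0 as lower.

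The enzymes that use arginine and ornithine held both changes. Nos2, inducible nitric oxide synthase, fell to 4.04, 4.51 and 4.04 FPKM in KO livers, against 8.60, 8.53 and 10.4 FPKM in WT livers. Every KO value was well below every WT value. The log2 fold change was -0.97 (limma adjusted p = 0.0096), and -0.47 as deposited, where it did not pass (limma adjusted p = 0.101). It also did not pass without KO replicate 1 (limma adjusted p = 0.0694). Summed levels of the Kupffer cell markers, 41.9 to 64.8 FPKM in KO and 44.8 to 70.7 FPKM in WT, and of the neutrophil markers, 115 to 127 FPKM in KO and 109 to 170 FPKM in WT, overlapped. Single Kupffer cell markers did not all do so: of 7 tested, 2 had estimates above 0 and 5 below, with a median of -0.16. An unadjusted limma p under 0.05 was found for 1300 of all 9218 tested genes and for 3 of these markers. These 3 were Timd4 (log2 fold change -0.59, limma adjusted p = 0.0578), Vsig4 (-0.56, limma adjusted p = 0.199) and Cd5l (-0.55, limma adjusted p = 0.208). In Timd4 and Cd5l each KO library was below each WT library, as in 9.88% of all tested genes. The part of these cells in the Nos2 result was not tested.

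Srm, spermidine synthase, rose to 15.4, 15.9 and 17.5 FPKM in KO livers, against 9.60, 7.85 and 7.25 FPKM in WT livers. The gap between the groups was wider than the range within either, with an estimated log2 change of 0.91 (limma adjusted p = 0.0175). It passed in the deposited values as well (limma adjusted p = 2.48e-07). It did not pass without KO replicate 1, KO replicate 3, WT replicate 2 or WT replicate 3 (limma adjusted p = 0.0902, 0.0839, 0.0776 and 0.0653), nor with no filter on low values (0.0782). Odc1, ornithine decarboxylase, which supplies the putrescine that Srm uses, had 25.3 ± 1.62 FPKM in KO and 27.1 ± 7.09 FPKM in WT (SD, n = 3 each), with an estimated log2 change of -0.07 (limma adjusted p = 0.91). Arg2, the mitochondrial arginase, stood near the filter, with means of 0.906 FPKM in KO and 0.915 FPKM in WT.

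Of the 14 tested genes of this list, 5 had KO below WT without overlap (9.88% of all tested genes), and 1, Srm, above (10.3% of all tested genes). The 5 were Nos2, Oat, Sat1, Smox and Paox, the last 3 polyamine acetylating and oxidising enzymes that were named after their values were seen. Oat, ornithine aminotransferase, diverts ornithine from the cycle and had 71.6, 87.6 and 109 FPKM in KO and 114, 149 and 131 FPKM in WT. Its highest KO value lay just under its lowest WT value, and the log2 fold change of -0.56 did not pass (limma adjusted p = 0.22). Oat is a marker of hepatocytes around the central vein. Over the 8 tested markers of that zone, which include Oat itself, all estimates were below 0, with a median of -0.40. The summed level of the zone's markers was 1824 to 2176 FPKM in KO and 2432 to 2797 FPKM in WT. The 9 markers of the portal zone went both ways, 5 above 0 and 4 below, with estimates from -1.29 to 0.59 and a median of 0.05. Their sums overlapped, 489.8 to 624 FPKM in KO and 524 to 759 FPKM in WT. None of these markers passed, and the part of the zones in the Oat value was not tested.

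The transporters of arginine, ornithine and glutamine did not pass in either direction. Of the 3 tested in the arginine and ornithine list, Slc7a2 and Slc7a7 had estimates below 0 and Slc3a2, a subunit shared by amino acid exchangers, above 0 (log2 fold change 0.37, limma adjusted p = 0.299; 0.00305 as deposited; Slc7a7 and Slc3a2 were named after their values were seen). Slc7a2, the cationic amino acid transporter through which hepatocytes take up arginine and ornithine, had 14.3, 14.9 and 15.0 FPKM in KO and 22.0, 26.6 and 19.3 FPKM in WT. The groups were apart, and the log2 fold change was -0.58 (limma adjusted p = 0.105). Slc38a4, a transporter of neutral amino acids, had 35.6, 32.5 and 30.8 FPKM in KO and 46.9, 54.6 and 45.8 FPKM in WT (log2 fold change -0.56, limma adjusted p = 0.0909), and Slc38a3, a glutamine transporter, had 88.4, 97.0 and 94.9 FPKM in KO and 119, 148 and 124 FPKM in WT (-0.47, limma adjusted p = 0.16). Both transporters were below WT in each KO library. Slc38a2, another amino acid transporter of that family, had overlapping values and an estimated log2 change of 0.0034 (limma adjusted p = 0.996).

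Glul, glutamine synthetase, overlapped between the genotypes. It had 254, 206 and 253 FPKM in KO and 302, 216 and 218 FPKM in WT, with a log2 fold change of -0.04 and a 95% interval of -0.44 to 0.37 (limma adjusted p = 0.955). Of the 11 tested genes of glutamine metabolism and transport 2 had estimates above 0 and 9 below, with a median of -0.38. In 5 of them KO was below WT without overlap (9.88% of all tested genes), and in 1, Slc1a5, above (10.3% of all tested genes). Apart from Slc38a3 and Slc38a4 the 5 were Slc1a2, Slc25a22 and Aqp8, named after their values were seen.

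Aspartate, which brings the second nitrogen of urea, is supplied through the transaminases. Got1, the cytosolic aspartate transaminase, had 27.6, 55.5 and 41.9 FPKM in KO and 76.5, 64.7 and 25.6 FPKM in WT. The WT libraries held both ends of this wide range, and the log2 fold change was -0.32 (95% interval -1.24 to 0.60, limma adjusted p = 0.783). Got2, the mitochondrial form, had means of 49.2 FPKM in KO and 49.6 FPKM in WT and an estimated log2 change of 0.0011 (limma adjusted p = 0.999). Slc25a12, the related aspartate carrier of brain and muscle, averaged 1.21 FPKM in KO livers and 1.48 FPKM in WT livers (log2 fold change -0.17, limma adjusted p = 0.576). Of the 14 genes of this list 5 had estimates above 0 and 9 below. None was apart between the groups in either direction, beside 9.88% of all tested genes with KO below WT and 10.3% with KO above.

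Among 19 tested genes of amino acid breakdown, 4 had estimates above 0 and 15 below, with a median of -0.23, and none passed. Sds, serine dehydratase, which frees ammonia from serine, had 101, 126 and 103 FPKM in KO and 146, 171 and 119.9 FPKM in WT. KO replicate 2 was above WT replicate 3, so the groups overlapped (log2 fold change -0.39, limma adjusted p = 0.348). Hal, histidine ammonia lyase, had 13.6 ± 1.37 FPKM in KO and 14.6 ± 3.22 FPKM in WT (SD, n = 3 each; log2 fold change -0.07, limma adjusted p = 0.897). Prodh, proline dehydrogenase, and Cth, which splits cystathionine, had KO below WT without overlap and did not pass (limma adjusted p = 0.0969 and 0.276, named after their values were seen). These 2 of 19 are near the share of all tested genes, 9.88%.

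**Figure D5:**
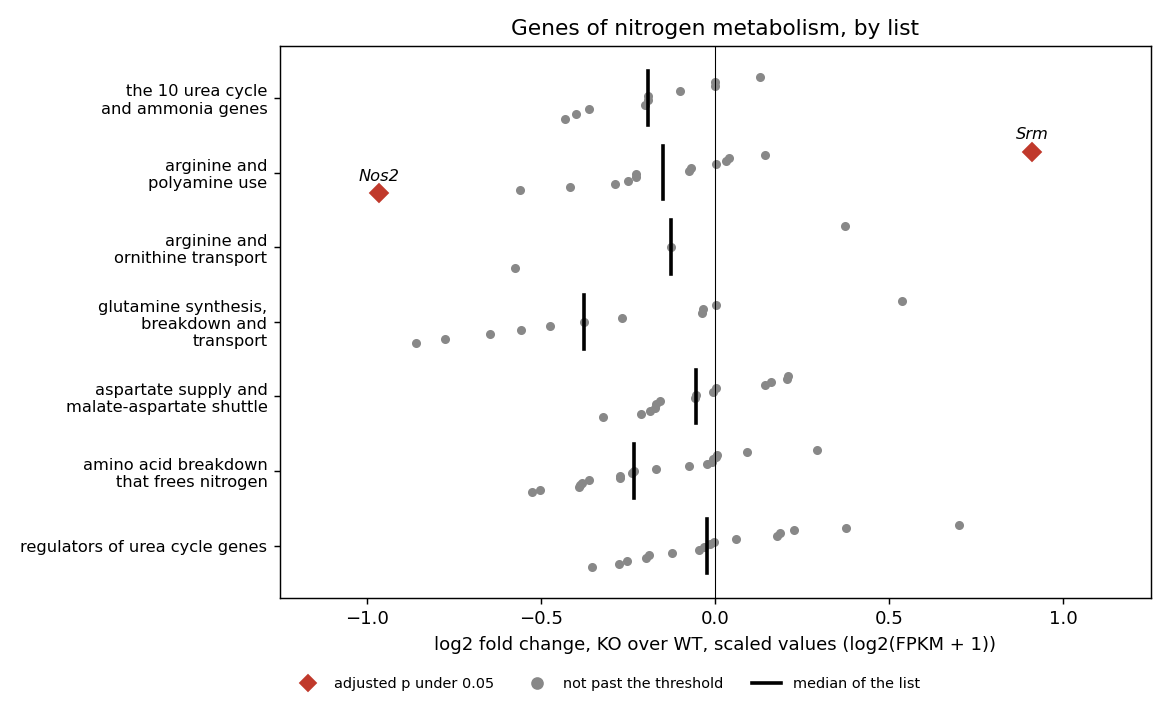
Log2 fold changes, KO over WT, in scaled values for the 10 genes (top) and for the tested genes of 6 lists of nitrogen metabolism; diamonds passed an adjusted p of 0.05, grey points did not, and black bars are list medians. Only Srm, at 0.91, and Nos2, at -0.97, are diamonds, and the glutamine list has the lowest median, -0.38.

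The transcription factors and receptors that govern the cycle gave no call among 16 tested genes, of which 6 had estimates above 0 and 10 below. Cebpa, the C/EBP factor needed for full Cps1 expression in mouse liver, had 148, 84.9 and 123 FPKM in KO and 83.7, 82.1 and 102 FPKM in WT. Its groups overlapped, with an estimated log2 change of 0.38 (limma adjusted p = 0.472). Cebpb had 165, 140 and 152 FPKM in KO and 176, 204 and 173 FPKM in WT, lower in each KO library (log2 fold change -0.28, limma adjusted p = 0.405). Hnf4a, the hepatocyte nuclear receptor, averaged 142.9 FPKM in KO livers and 144 FPKM in WT livers (log2 fold change -0.02, limma adjusted p = 0.974). Gcgr, the glucagon receptor, had 34.1, 37.3 and 30.8 FPKM in KO and 38.9, 39.2 and 39.3 FPKM in WT, and Sirt5, the mitochondrial deacylase that acts on carbamoyl phosphate synthetase, had 1.41, 1.35 and 1.51 FPKM in KO and 1.69, 2.01 and 1.61 FPKM in WT. Both were lower in each KO library, and neither passed (limma adjusted p = 0.506 and 0.469). Besides Cebpb, Gcgr and Sirt5, KO was below WT without overlap in Nr3c1 and Ppara, and above in Foxa2, Creb1 and Creb3l3, all named after their values were seen. In all, 5 of the 16 were below (9.88% of all tested genes) and 3 above (10.3% of all tested genes).

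Among the genes whose values most resembled the mean z-score of the 5 cycle enzymes over the 6 libraries were Oas1a (an interferon-induced oligoadenylate synthetase, Pearson r = 0.995), Clock (a circadian transcription factor, 0.99), Dera (deoxyribose-phosphate aldolase, 0.987) and Akr1d1 (a steroid reductase of bile acid synthesis, 0.983). With 6 libraries that share scaling factors and 9218 genes to choose from, these values are a description. The mean z-score was 0.0267, -0.658 and -0.4 in KO and 0.634, 0.876 and -0.479 in WT, so WT replicate 3 sat with the KO libraries. Akr1d1, for instance, had 19.3, 13.3 and 14.1 FPKM in KO and 23.7, 26.8 and 15.9 FPKM in WT, with WT replicate 2 the highest and KO replicate 2 the lowest, as in the z-score.

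The tissue carried the markers of liver in every library. Summed FPKM of 6 hepatocyte markers were 19260 to 22450 in KO and 21090 to 27360 in WT, and 5 kidney tubule markers summed to 0.705 to 0.899 FPKM in KO and 0.55 to 1.24 FPKM in WT. Erythroid markers summed to 183.9 to 285 FPKM in KO and 124 to 297 FPKM in WT, and markers of the sinusoidal endothelium to 15.4 to 20.8 FPKM in KO and 17.2 to 26.4 FPKM in WT. All 4 tested endothelial markers had estimates below 0. In Stab2 each KO library was below each WT library (log2 fold change -0.67, limma adjusted p = 0.0889), as in 9.88% of all tested genes. None of these lists held a gene that passed or was at 0 in every library.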

How the data were processed

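Libraries were made by Illumina protocols from Trizol-extracted liver RNA, per the labels' protocols. Reads were aligned with HISAT2 2.0.5, per the submitters' processing notes, which name the builds mm39 and hg38 without a role. No source used here gives the counting tool, its annotation or its strand setting. The authors deposited FPKM values for 19613 rows (412 at 0 in every library), and columns were matched to samples by library name. The targeted gene and some named genes are not reported here.

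Whole reads were recovered for all 19613 rows (100%, within 0.0001 reads of a whole number), as the smallest whole numbers that give a row's FPKM in all 6 libraries. They give the depth and 1 alternative test. Genes that reached 1 FPKM in 3 or more libraries were divided by median-of-ratios factors (1.02, 1.28 and 1.4 for KO replicates 1 to 3, 0.772, 0.723 and 0.986 for WT replicates 1 to 3, over genes above 0 in every library) and tested on log2(FPKM + 1) with limma 3.58.1 in R 4.3.3 (eBayes with an intensity trend, two-sided, genotype only, 4 residual degrees of freedom, Benjamini-Hochberg over 9218 genes, called at 0.05). The pseudocount of 1 understates changes of low genes. The fit was tested on simulated data. Of all tested genes 99 passed, 44 higher and 55 lower in KO. The members and lists were chosen with earlier results of these data known. Named by rule beside the 10 members were related genes that passed, 20 fixed genes whatever their values, and genes from among the 5 most correlated with the cycle enzymes. The other related genes, and the single Kupffer cell and endothelial markers, were named after their values were seen. An exact permutation test of 3 libraries against 3 cannot go below a two-sided p of 0.1 and was not used. Alternatives were the deposited scale, upper-quartile, quantile and TPM scaling, a pseudocount of 0.1, a minimum mean of 5 FPKM or no filter, robust eBayes, arrayWeights, a replicate block, an adjusted p under 0.1, limma-voom on the recovered reads, and each library left out.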

Additional observations from a re-analysis of the deposited data

How the results depend on the processing

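Under 17 of the 18 alternatives 0 of the 10 members passed, with a lowest limma adjusted p between 0.177 (without WT replicate 3) and 0.688 (without WT replicate 2); on the deposited values 1 passed (Nags). On the deposited values 2703 genes and 17 related genes passed, and the log2 fold change turned positive for Cps1 (0.171), Otc (0.566), Ass1 (0.371), Asl (0.369), Arg1 (0.38), Slc25a15 (0.177), Slc25a13 (0.437), Glud1 (0.139) and Gls2 (0.545). Otc and Gls2, which lie at 0, also crossed it under quantile normalization (0.113 and 0.0181), TPM (0.0985 and 0.0983), a minimum mean of 5 FPKM (0.0063 and 0.00767), no filter (0.011 and 0.0122) and arrayWeights (0.00392 and 0.026), and Gls2 under upper-quartile scaling (0.00125). With each library left out in turn, the estimate ran from -0.0946 to 0.0959 for Otc, from -0.0605 to 0.054 for Gls2, from -0.225 to 0.0458 for Slc25a13, from -0.449 to 0.0768 for Asl and from -0.412 to 0.00206 for Arg1. Without changing sign, it ran from -0.62 to -0.232 for Cps1, from -0.278 to -0.112 for Ass1, from -0.638 to -0.102 for Slc25a15, from -0.641 to -0.251 for Glud1 and from 0.00155 (without WT replicate 2) to 0.214 for Nags, and none passed.

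The count of all genes that passed, 99, became 31 with no filter, 354 with arrayWeights, 220 at an adjusted p under 0.1, 114 with limma-voom on the recovered reads and between 20 (without KO replicate 1) and 97 with each library left out; it was 45 without KO replicate 3 and 48 without WT replicate 2, and 54 without WT replicate 3. Related genes that passed numbered between 0 and 2 with each library left out. With the replicate number as a block 298 genes and 0 members passed. Same-numbered KO and WT libraries had correlations of 0.328, 0.473 and 0.0183 in their deviations from the group means. Those of different numbers ran from -0.524 (KO replicate 2 with WT replicate 1) to 0.362 (KO replicate 3 with WT replicate 1). No label gives a batch or a pairing, so the main fit did not pair the samples. Whether same-numbered libraries shared a batch was not tested. Why the counts differed between the alternatives was not tested either. The 95% intervals of the members leave room for log2 changes from -0.94 (Slc25a15) to 0.47 (Nags).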
